A study of Mus musculus with 5375 samples.

Results

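Non-capillary endothelial cells (ECs) of the mouse lung, the cells that line arteries, veins and their larger branches, were described from single-cell transcriptomes. The members are the cells whose columns the authors kept in their table of all ECs (2479 cells) and left out of their table of capillary ECs (2293 cells, called capillary here). They numbered 43 on day 0, 82 on day 1.5 and 61 on day 3.5, or 7.503% of the kept ECs. Each library came from 1 lung EC of a WT female BALB/c mouse, sorted as CD45- PDPN- LYVE1- TER119- CD31+ into a well of a plate and read by a modified SMART-Seq2 protocol, which has no molecular identifiers. Of 10 animals, 4 were uninjected controls (day 0), 3 were sampled on day 1.5 and 3 on day 3.5 after 4T1-GFP cells, a green fluorescent line of BALB/c breast cancer, had been injected into the tail vein. Per the study's methods, the tumor cells were stained with CellTrace, a dye diluted by division, and given in repeated injections, and at day 1.5 an antibody against H-2Kd, a surface protein of BALB/c cells, was put into the blood to mark cells inside vessels.

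Blood enters the lung through arteries, whose lining cells meet high pulsatile flow and lie on elastic walls, and leaves it through veins, where flow is slow and leukocytes can attach. Arterial ECs are known for Notch signaling and for connexins such as Gja5 and Gja4, and venous ECs for the transcription factor Nr2f2, which restrains Notch genes. Von Willebrand factor (Vwf), a clotting protein stored in granules, is abundant in large-vessel ECs and scarce in most lung capillaries.

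Each animal gave between 8 and 34 members: 13, 14, 8 and 8 on day 0, 28, 20 and 34 on day 1.5, and 28, 19 and 14 on day 3.5. Their summed depth ran from 4.11 to 6.50 M reads (M, mega) per animal on day 0, from 6.19 to 11.1 M on day 1.5 and from 7.04 to 8.31 M on day 3.5. The median member held 334882 reads and the median capillary cell 334216. Within animals the medians differed in either direction, from 202264 reads in members against 275606 in capillary cells (day 3.5 replicate 1) to 405956 against 301134 (day 0 replicate 3), and the part of depth in the detection shares below was not tested. The median number of detected genes per member was 2170, 2535.5 and 2553 on the 3 days, and the median mitochondrial share of reads was 2.33%, 1.86% and 2.19%. In capillary cells that share was 1.51%, 1.71% and 1.60%, and it was lower than in members in every animal. The part of this difference in the comparisons below was not tested. Day 0 replicates 1 and 2 carry the sort day of the day 1.5 animals, and day 0 replicates 3 and 4 that of the day 3.5 animals. Levels are given as CPM, the reads of a gene summed over the member cells of 1 animal and scaled to 1000000 reads of those cells. A gene counts as detected in a cell from any read upwards. CPM is not divided by gene length, so levels are compared between cells and not between genes.

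The authors classed ECs by a score of 12 large-vessel genes, and that score, rebuilt here, separated the tables almost wholly. Members scored from 0.754 to 2.81 with a median of 1.22, and capillary cells had a median of -0.159 and a maximum of 0.821. Near the limit the tables interleaved: 6 members lay below the highest capillary cell, and 14 capillary cells lay above the lowest member. All but 53 members scored above 1, the limit in the study's methods. The highest cycling score of a member was 0.294, so no member passed the study's cycling limit of 0.5, although 24 capillary cells did. Because expression placed the cells, all levels of members against capillary cells below are descriptions without a test.

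Among the 5 genes used to check the label, Vwf (chromosome 6, 125552948 to 125686679, RefSeq GRCm38.p6) was the most widespread. Its level per animal ran from 2492 to 7407 CPM in members, with a median of 4604, and from 49.3 to 345.1 CPM in capillary cells, with a median of 132.99. The groups did not overlap, and the mean level was 34.04-fold that of capillary cells (log2 ratio 5.09, SD 1.12 over 10 animals). Vwf was detected in 98.9% of members, and 88.2% held at least 10 of its reads, against 37.9% and 13.3% of capillary cells. The other 4 genes mark either arteries or veins, and each was detected in a minority of members.

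Gja5 (chromosome 3, 97032402 to 97053634), the gap junction protein of arterial ECs, had a median of 168.3 CPM in members (0 to 351.9) against 13.7 in capillary cells (5.90 to 85.7), and it was higher in 8 of 10 animals. Bmx (chromosome X, 164192842 to 164258193), a tyrosine kinase of arterial endothelium, had a median of 199.3 CPM (11.2 to 655) against 12.4 (1.67 to 39.1), higher in 9 of 10. Nr2f2 (chromosome 7, 70351946 to 70366746) had a median of 57.3 CPM (10.5 to 151.3) against 1.70 (0.514 to 13.8), higher in 10 of 10. Slc6a2 (chromosome 8, 92960470 to 93001667), the noradrenaline transporter, had a median of 281.98 CPM (0.358 to 1497) against 22.9 (0.763 to 61.6), higher in 8 of 10. The ranges of all 4 overlapped between members and capillary cells. They were detected in 59, 80, 62 and 72 members, and at least 10 reads were found in 33, 66, 28 and 43. Vwf, Bmx and Nr2f2 belong to the score that chose the cells, so that of the 5 genes Gja5 and Slc6a2 alone check the label with values outside it.

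The large-vessel score itself holds Vwf, Bmx, Nr2f2 and 9 further genes, and of these 12 genes 6 were above the capillary level in all 10 animals, as were 0.486% of all genes detected in at least 10 members. The score chose the cells, so nothing is read from that count. Cytl1, a secreted cytokine-like protein, stood at 1092 to 8759 CPM in members against 0.414 to 107.3 in capillary cells. Plac8, a small cysteine-rich protein, stood at 522 to 3251 CPM against 0.141 to 156.3. Ltbp4, which tethers latent TGF-beta to elastic fibers, stood at 391 to 2798 CPM against 12.9 to 88.7, and Prss23, a secreted serine protease, at 276.8 to 2173 against 30.1 to 161.97. None of these 4 pairs of ranges overlapped. Some log2 ratios rested on 1 animal, with that of Cytl1 going from 7.51 to 8.50 without day 1.5 replicate 2, Nr2f2 from 4.42 to 5.21 without day 3.5 replicate 2, Bgn from 6.36 to 7.93 without day 0 replicate 1 and Fbln5 from 5.99 to 7.02 without day 1.5 replicate 1. Hey1, a Notch effector, was the exception: its mean was 94.5 CPM in members and 104.2 in capillary cells, it was lower in 7 of 10 animals, and its small log2 ratio of -0.14 changed sign when cells were weighted equally (0.13 for the mean log10 value per cell and 0.25 with equal totals) and without day 0 replicate 4 (0.07) or day 3.5 replicate 3 (0.06).

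**Figure D1:**
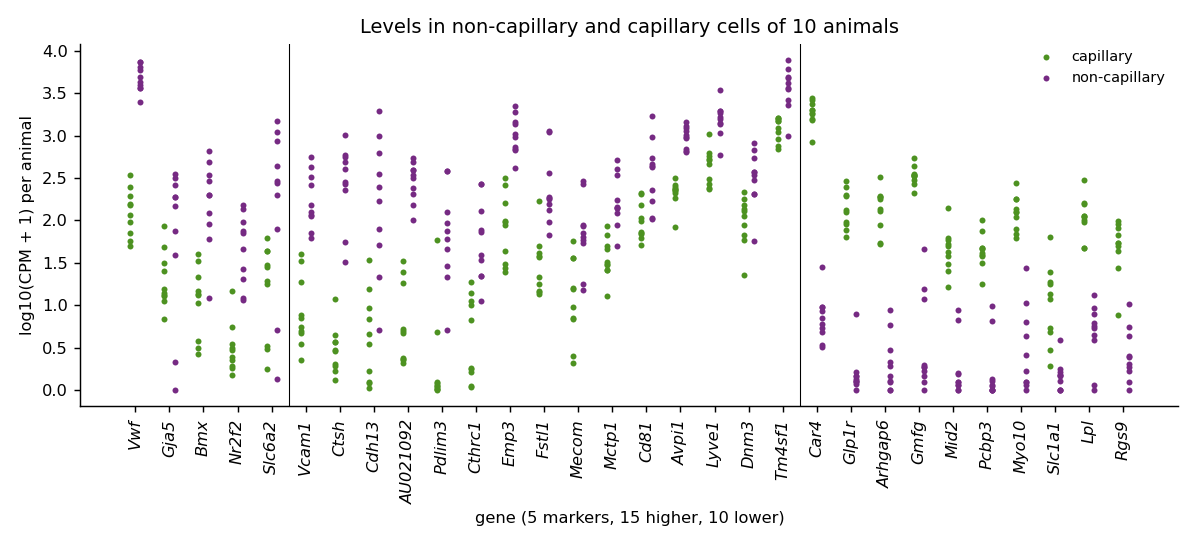
Level of each named gene (log10 of CPM plus 1, 1 point per animal) in non-capillary (purple) and capillary (green) cells of 10 animals. The panel is divided into the 5 label markers and, among genes outside the classing lists that were detected in at least 20% of the cells of the higher class and had 1 direction in all 10 animals, the 15 with the highest and the 10 with the lowest ratio; Vwf sits at 2492 to 7407 CPM in members against 49.3 to 345.1, and Car4 at 2.19 to 27.5 against 845 to 2812.

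Of 3825 genes detected in at least 20% of members, 48 (1.25%), genes of the lists used for classing among them, were above the capillary level in all 10 animals. The 15 of them outside those lists with the highest ratio of means were Ctsh, Cdh13, AU021092, Pdlim3, Vcam1, Cthrc1, Emp3, Fstl1, Mecom, Mctp1, Cd81, Avpi1, Lyve1, Dnm3 and Tm4sf1. Ctsh, the lysosomal protease cathepsin H, ran from 31.1 to 1019 CPM in members and from 0.293 to 10.8 in capillary cells, without overlap. Cdh13, the lipid-anchored T-cadherin, had a mean of 447 CPM against 6.87, but its ranges met, with a lowest member value of 4.06 and a highest capillary value of 32.98. One animal moved both log2 ratios: that of Ctsh went from 7.22 to 7.88 without day 0 replicate 1, and that of Cdh13 from 6.02 to 6.89 without day 1.5 replicate 1 and to 5.25 without day 1.5 replicate 2. Vcam1, the adhesion receptor that leukocytes bind on activated endothelium, ran from 60.4 to 553 CPM against 1.26 to 39.6. Only 62 members held any Vcam1 read and 37 held at least 10, so the level came from a part of the cells.

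Of the other genes, Emp3, a small membrane protein, had a mean of 1148 CPM against 113.8, and Cd81, a tetraspanin, 512 against 108.6. Cthrc1 and Fstl1, which are secreted, had means of 93.7 against 5.79 CPM and 360.99 against 40.8 CPM. Pdlim3, a protein of the actin cytoskeleton, had a mean of 121.1 CPM against 6.20, and its log2 ratio of 4.29 became 7.46 without day 1.5 replicate 1, where capillary cells held their highest level (57.3 CPM). Mecom, a transcription factor, stood at 13.9 to 288.6 CPM against 1.06 to 56.9. Tm4sf1, a membrane protein that was already abundant in capillary cells, had a mean of 4094 CPM against 1251 and was detected in 94.1% of members.

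Lyve1, the hyaluronan receptor that marks lymphatic and some venous ECs, was among these genes although cells with LYVE1 protein on the surface had been gated out. Its mRNA stood at 591 to 3503 CPM in members against 234.9 to 1047 in capillary cells, and 87.6% of members held it. The lymphatic factor Prox1 was detected in 2 members, and Ccl21a, a lymphatic chemokine, in 0, while Flt4, a receptor also used by capillary ECs, was below the capillary level in 10 of 10 animals.

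In the opposite direction, 6.05% of 4098 genes detected in at least 20% of capillary cells were lower in members in all 10 animals. Member levels were summed over far fewer cells per animal than capillary levels. The part of that in the counts above and below the capillary level was not tested. Car4, a carbonic anhydrase anchored on capillary endothelium, was at 2.19 to 27.5 CPM in members and 845 to 2812 in capillary cells, a mean 255.8-fold lower. Traces of Car4 were still read in 55.9% of members, but 3.76% (7 cells) held at least 10 reads, against 54.2% of capillary cells. Among these lower genes, the 10 with the lowest ratios outside the lists used for classing were Car4, Glp1r, Arhgap6, Gmfg, Mid2, Pcbp3, Myo10, Slc1a1, Lpl and Rgs9. Glp1r, the receptor of an incretin hormone, had a mean of 0.990 CPM against 151.1, and its log2 ratio of -7.25 became -8.95 without day 3.5 replicate 2. Lpl, the lipase that capillaries display to clear triglycerides, had a mean of 4.77 CPM against 124.002. Myo10, an actin motor of filopodia, had a mean of 4.81 CPM against 133.1, and Slc1a1, a glutamate transporter, 0.595 against 15.6. The log2 ratio of Myo10 went from -4.79 to -5.75 without day 3.5 replicate 1, and that of Slc1a1 from -4.71 to -5.50 without the same animal and to -4.07 without day 0 replicate 4. Leaving out 1 animal of day 1.5 likewise took Gmfg from -5.55 to -6.72 (replicate 3), Mid2 from -5.02 to -5.91 (replicate 3) and Pcbp3 from -4.97 to -6.15 (replicate 2). The ranges of Slc1a1 and Rgs9, a regulator of G protein signaling, overlapped with those of capillary cells, and the other 8 did not.

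Matrix genes lay on both sides of the capillary level. Of 20 listed genes 14 were detected in at least 10 members, and 3 of these (Ltbp4, Fbln5 and Bgn) belong to the large-vessel score. The other 11 had a median log2 ratio of 1.28 against -0.23 over all genes so detected, with 1, Fbn1, above (0.486% of all such genes) and 3 below the capillary level in all 10 animals (5.53%). With the score genes the median was 2.71. Matrix Gla protein (Mgp), an inhibitor of calcification in vessel walls, had a mean of 10358 CPM against 31.4 and was detected in 62.9% of members, although it was at 0 in 1 animal. Fbn1, the fibrillin of elastic microfibrils, had a mean of 137.2 CPM against 5.79 with detection in 18.3% of members, and elastin (Eln), their elastic core, 544 against 63.9. Sparc and the basement membrane collagens Col4a1 and Col4a2 were the 3 below, with means of 731 against 2362, 153.9 against 993 and 179.1 against 1207 CPM. Not all genes of elastic fibers were higher, since Mfap2 and Emilin1, glycoproteins of these fibers, had means of 391 against 981 and 42.7 against 77.2 CPM and were lower in 9 and 8 of 10 animals.

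Arterial, hemostasis and adhesion genes were less even. Of the 8 arterial genes listed below, 0 were above and 0 below the capillary level in all 10 animals. Cxcl12, a chemokine, was higher in 9 of 10 animals (2332 against 723 CPM), but the Notch ligand Dll4 and the transcription factor Sox17 were lower in 8 and 9 of 10, at 87.6 against 142.4 and 93.01 against 152.4 CPM. Of 10 hemostasis genes 1, the score gene Vwf, was above the capillary level in all 10 animals, beside 0.486% of all genes detected in at least 10 members. Procr, the protein C receptor, had a mean of 89.1 CPM against 3.35, Plat, the tissue plasminogen activator, 168.7 against 16.6, and Nos3, the endothelial nitric oxide synthase, 144.02 against 27.7, each higher in 9 of 10. Of 10 adhesion genes, Vcam1 was above and Icam2 below the capillary level in all 10 animals, beside 0.486% and 5.53% of all genes, and P-selectin (Selp) had a mean of 77.3 CPM against 1.58. Of 9 growth factor genes 3 were below in all 10 animals (5.53% of all genes), among them Pdgfb, the platelet-derived growth factor that recruits mural cells (38.1 against 180 CPM), whereas Bmp4, a bone morphogenetic protein, was higher in 8 of 10 (82.5 against 21.5 CPM).

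The study's capillary markers were not lost alike. Of its 12 aerocyte (aCap) genes, 5 were detected in at least 10 members, with a median log2 ratio of -2.44. Of these 5 genes, 2 were below the capillary level in all 10 animals, beside 5.53% of all genes so detected. Over all 12 genes, including those read in fewer members, the median was -7.80, from -8.98 for Itgb5 to -1.65 for Ednrb. Tbx2 stood at 0.616 against 131.2 CPM and Ednrb at 87.3 against 274.5 CPM. The 13 general capillary (gCap) genes, each detected in at least 10 members, had a median log2 ratio of -0.20. Kit, a growth factor receptor, stood at 18.4 against 225.6 CPM and was lower in 10 of 10 animals, whereas Jam2, a junction protein, was higher in 10 of 10 (467 against 117.08 CPM). Plvap, the protein of fenestral diaphragms, had means of 903 and 1068 CPM and was higher in 5 animals and lower in 5. These are the study's own class markers, so the values describe the classes.

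Members were endothelial by their common markers. Pecam1 was detected in 99.5% of members, Eng in 96.8%, Cldn5 in 96.2% and Cdh5 in 79.6%, and the median log2 ratio of 9 pan-endothelial genes was -0.35. Kdr, the main VEGF receptor, was lower than in capillary cells in 10 of 10 animals, at 0.487 to 235.6 CPM against 334.3 to 644. Markers of other cell types were rare, and the authors had removed cells by some of the immune and stromal genes. No immune, fibroblast or mesothelial marker of those with values reached 10 members, and Ptprc, the immune marker CD45, was at 0 in every animal. Their summed levels per animal were 0.127 to 35.7 CPM for immune, 0 to 26.2 CPM for fibroblast and 0 to 0.239 CPM for mesothelial genes. Of 9 mural markers, 3 (Rgs5, Acta2 and Tagln) were detected in 13, 15 and 13 members, with a summed level of 0.120 to 234.001 CPM per animal, whereas Myh11 and Pdgfrb had means of 0.0361 and 0.00900 CPM. Of 8 epithelial markers, Krt18 and Sftpc were detected in 11 and 10 members, Epcam was at 0, and the sum ran from 0.243 to 941 CPM, the highest in a day 3.5 animal. Of the red cell and platelet genes, Hba-a1 and Hbb-bs were detected in 24 and 27 members, and the sum ran from 0.710 to 442 CPM. The part of these traces in the results was not tested.

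Next, members were ordered along an arterial to venous axis. For each cell, 8 arterial genes (Gja5, Gja4, Bmx, Efnb2, Sox17, Hey1, Dll4 and Cxcl12) and 8 venous genes (Nr2f2, Slc6a2, Ephb4, Car8, Prss23, Bst1, Amigo2 and Vcam1) were scaled over the members, and the venous mean was subtracted from the arterial mean. The difference ran from -2.05 to 1.81, with quartiles at -0.84 and 0.76. It put 98 cells on the arterial side (above 0) and 88 on the venous side, and 24 cells lay within 0.25 of 0. Over all members the arterial and venous means had a Pearson correlation of -0.51, which is a description: the cells share animals and plates, and each cell's values share 1 depth. The sides are ranges of a score and not cell types. The large-vessel scores had medians of 1.22 on the arterial and 1.23 on the venous side, the numbers of detected genes 2394 and 2509.5, and the reads per cell 303492 and 354717.

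The label's 4 artery and vein markers, all of which are among these 16 genes, gave a related picture. Any read of Gja5 or Bmx, with none of Nr2f2 or Slc6a2, was found in 69 cells, the converse in 57, reads of both kinds in 38 and neither in 22. With at least 10 reads required, a limit chosen after the values were seen, 76 cells were arterial alone, 49 venous alone, 5 held both and 56 neither. Reads of both kinds in 1 cell were thus mostly traces. Slc6a2 was detected in 15 arterial-side cells, yet its level there was 0.696 CPM against 873 CPM on the venous side, and no arterial-side cell held 10 reads of it.

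**Figure D2:**
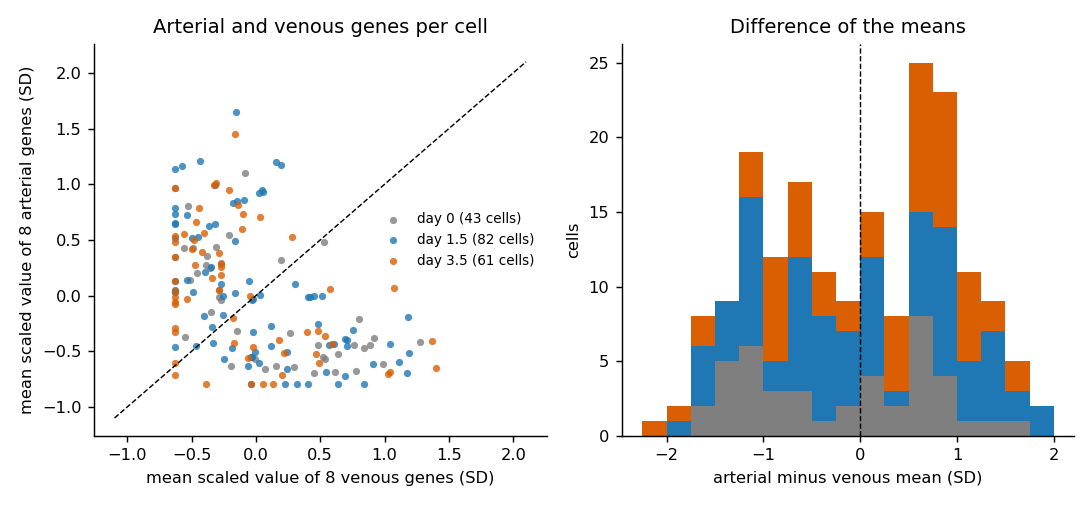
Left, the mean scaled value of 8 arterial genes against that of 8 venous genes in SD units, 1 point per member, colored by day, with the line of equal means. Right, stacked counts of cells by the arterial minus venous mean; 98 cells lie above 0 and 88 below, and 24 within 0.25 of it, so that no empty gap divides the sides.

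Of the 16 genes that set the sides, the extremes were Cxcl12 and Prss23. Cxcl12, a chemokine made by arterial ECs, stood at 4210 CPM on the arterial side and 66.7 on the venous side, with at least 10 reads in 67 and 10 cells. Prss23 was its mirror image, with 31.99 CPM on the arterial side and 1784 on the venous side. Vcam1 hardly took part, at 203.9 and 251.7 CPM and in 31 cells of each side. Ephb4, the venous receptor of the arterial ligand Efnb2, was detected in 23 arterial-side and 49 venous-side cells, although its summed level was higher on the arterial side (134.1 against 75.1 CPM). Beside capillary cells, Sox17 (122.2 against 153.03 CPM), Dll4 (113.1 against 141.4) and Hey1 (98.7 against 103.3) were not higher on the arterial side. Gja5, Gja4, Bmx, Efnb2 and Cxcl12 were higher there than in capillary cells.

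Genes outside these 16 were ranked by the difference in mean log10 value, among those detected in at least 30% of the cells of a side. The 10 that differed most on the arterial side were Mgll, Efna1, Avpi1, Abi3bp, Hilpda, Gstp1, Plac8, Sema3g, Rnf144a and Smad6. Mgll, which breaks down monoacylglycerols, stood at 1573 CPM on the arterial and 220.7 on the venous side and was higher on the arterial side in 10 of 10 animals. Efna1, an ephrin ligand, stood at 1028 and 227.5 CPM and Hilpda, a lipid droplet protein, at 2120 and 87.4 CPM, both also in 10 of 10 animals. Sema3g, a secreted guidance cue of arterial ECs that is also a gCap gene of the study, stood at 357.3 and 0.506 CPM. At least 10 of its reads were found in 33 arterial-side cells and 0 venous-side cells. Smad6, an inhibitor of BMP signaling, was at 274.8 and 54.9 CPM. Plac8, one of the large-vessel genes, belonged more to the arterial side, at 2703 and 968 CPM in 8 of 10 animals. In capillary cells Mgll, Efna1, Hilpda, Sema3g, Smad6 and Plac8 stood at 459, 555, 1754, 210.2, 106.3 and 63.1 CPM.

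On the venous side the leading genes by the same rule were Lrg1, Mustn1, Gpr182, Csrp2, Dnm3, Ctla2a, Ripply3, Cpe, Tmem252 and Lbp. Lrg1, a secreted glycoprotein that modulates TGF-beta signaling in endothelium, stood at 4016 CPM on the venous and 102.3 on the arterial side, and 58 venous-side cells but 6 arterial-side cells held at least 10 reads. Dnm3, a dynamin, stood at 845 and 0.682 CPM, and 41 venous-side cells and 0 arterial-side cells held 10 reads. Gpr182, a chemokine scavenging receptor that is also a gCap gene of the study, stood at 1992 and 226.8 CPM. Ctla2a, a cysteine protease inhibitor, was detected in 85 venous-side and 82 arterial-side cells, and its difference lay in level (3476 and 827 CPM). Lbp, which binds bacterial lipopolysaccharide, stood at 275.5 and 0.608 CPM. In the plot of these 20 genes by side, Efna1 and Ctla2a reached 10 reads in the largest shares of the cells of their own side (72.4% and 86.4%), while Sema3g, Rnf144a, Dnm3, Cpe and Lbp did so in a minority.

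**Figure D3:**
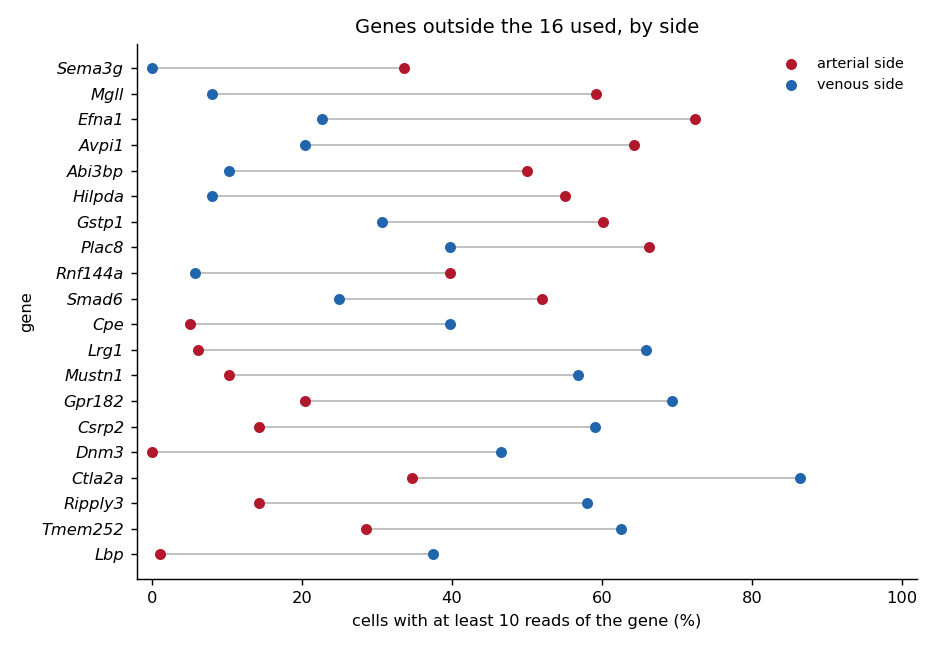
Percent of arterial-side (red, 98 cells) and venous-side (blue, 88 cells) members with at least 10 reads of the gene, for the 10 genes outside the 16 that leaned furthest to each side. Those genes were ranked among genes detected in at least 30% of the cells of that side. Sema3g and Dnm3 reach 33.7% and 46.6% on their own side and 0% on the other; Ctla2a spans 34.7% to 86.4%.

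Gene groups leaned as follows, read against all 10697 genes detected in at least 10 members, of which 41.5% had a higher mean log10 value on the arterial and 58.5% on the venous side. Venous-side cells also held more reads, and the part of depth in these counts was not tested. Of 12 further arterial genes, 9 were higher on the arterial side. Hey2, a Notch effector, was detected in 19 arterial-side cells and 1 venous-side cell, Unc5b, a guidance receptor, in 25 and 3, and Htra1, a secreted protease, in 29 and 3. Cytl1, Eln and Jag1 were the exceptions by mean log10 value. By summed level elastin stood at 392 CPM on the arterial and 783 on the venous side, whereas Cytl1 was higher on the arterial side (4922 against 2982 CPM). All 4 further venous genes with enough detection were higher on the venous side: Ackr3, a scavenging chemokine receptor, stood at 208.4 against 27.4 CPM, Cpe, a carboxypeptidase, at 293.9 against 16.1, Nrp2, a co-receptor of VEGF and semaphorins, at 48.9 against 6.34, and Selp, which first slows leukocytes on venous walls, at 84.01 against 53.5.

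The hemostasis and adhesion lists leaned to the venous side, with 9 of 10 hemostasis genes and 7 of the 8 adhesion genes outside the 16. Vwf itself stood at 6126 CPM on the venous and 3926 on the arterial side, and was higher on the venous side in 8 of 10 animals. Ptgs1 and Ptgis, which make prostanoids, stood at 341.3 against 32.5 and 130 against 17.9 CPM, and thrombomodulin (Thbd), which turns thrombin into an anticoagulant, at 514 against 93.2. Plat was the only hemostasis gene on the arterial side by mean log10 value (245.6 against 97.8 CPM, detected in 41 and 7 cells). Nos3 leaned to the venous side by that value but was higher on the arterial side by summed level (180.4 against 97.995 CPM). Of the adhesion genes, Icam1 was at 487 against 82.1 CPM, and Ackr1, a chemokine receptor of venules, was detected in 11 venous-side cells and 1 arterial-side cell. By mean log10 value only Icam2 leaned to the arterial side (1964 against 1328 CPM), while Il1r1 was higher there by summed level (23.1 against 2.11 CPM).

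Matrix genes leaned to the arterial side in 10 of 14. Of the Notch genes outside the 16, 5 of 9 did so, the other 4 being Jag1, Dll1, Hes1 and Rbpj. Mgp stood at 18031 CPM on the arterial and 5245 on the venous side, but was detected in like numbers of cells (64 and 53) and was higher on the arterial side in 6 of 10 animals. Ltbp4 stood at 1455 and 470 CPM and was higher in 10 of 10. Fbln2 and Fbn1, glycoproteins of elastic fibers, stood at 285.5 and 194.2 CPM on the arterial side against 29.9 and 43.3 CPM on the venous side. Among pan-endothelial genes, Cldn5, the tight junction claudin, leaned to the arterial side (2997 and 1379 CPM) and Emcn, an anti-adhesive sialomucin, to the venous side (429 and 85.2 CPM). Of 6 flow genes 2 leaned to the arterial side by mean log10 value, beside 41.5% of all genes. They were Edn1, the vasoconstrictor endothelin-1, at 469 and 211.1 CPM, and Klf2, a factor induced by shear, at 772 and 540 CPM. Klf2 was detected in 76.5% and 78.4% of cells and was higher on the arterial side in 3 of 10 animals. The 4 others, Klf4, Nos3, Thbd and Cav1, leaned to the venous side by that value.

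Members with a large-vessel score of at most 1, of which 30 lay on the arterial and 23 on the venous side, were set beside the rest. Genes of the score were used for the split, so their values are not read as a difference. Vwf was detected in 96.2% of these 53 cells at 3943 CPM, against 100% at 5373 CPM in the members above 1, while Prss23 (1148 against 764 CPM) and Hey1 (143.5 against 56.2 CPM) were higher in the 53 cells. Of the 15 genes above that lie outside the score, all but Dnm3 (41.5% against 38.3%) were detected in a smaller share of these cells. Ctsh was detected in 18.9% against 52.6% and Cdh13 in 20.8% against 39.8%, but by summed level Emp3 (1581 against 1101 CPM), Fstl1 (396 against 278.4), Cd81 (505 against 407) and Pdlim3 (134.6 against 120.6) were higher in the 53 cells. Car4 was at 16.7 CPM in the 53 cells, 5.48 in the members above 1 and 1935 in capillary cells. The median score of the study's gCap list was 0.286 in the 53 cells, 0.0866 in the members above 1 and 0.206 in capillary cells. By that list the 53 cells were thus not set apart from capillary cells. The median score of its aCap list was -0.272, -0.344 and -0.238 in the same order.

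The share of non-capillary cells was then compared between days, with the animal as the unit. Members made up 5.86%, 6.19%, 3.79% and 4.44% of the kept ECs of the day 0 animals, 8.95%, 6.83% and 10.1% on day 1.5, and 10.5%, 8.92% and 6.36% on day 3.5. Every day 0 animal lay below every injected animal. The means were 5.07% ± 1.14 (SD, n = 4), 8.64% ± 1.68 (SD, n = 3) and 8.60% ± 2.099 (SD, n = 3). The share was 3.57 percentage points higher on day 1.5 than on day 0 and 3.53 points higher on day 3.5 (exact permutation test over animals, 2-sided, p = 0.0286 each, the smallest value that 3 against 4 allows, adjusted p = 0.0429 over 3 pairs of days). Days 1.5 and 3.5 differed by -0.04 points (exact p = 0.9). The score that placed the cells holds Vwf, which is also in the study's biosynthesis panel, genes picked there for a rise on both later days. In capillary cells that panel had a median log2 change of 0.86 on day 1.5 and 0.50 on day 3.5 against day 0. Whether such changes moved cells across the limit of the score was not tested, so a higher share need not mean more large-vessel cells.

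This call was not stable. With the members above score 1 alone the differences were 2.98 and 2.62 points and the exact test's adjusted p was 0.129 for each, and with all sorted wells as the denominator they were 3.39 points (adjusted p = 0.0857, exact) and 1.57 points (0.300). The kept fraction of wells itself differed between days, at 62.5% to 78.5% on day 0, 76.3% to 87.2% on day 1.5 and 55.5% to 69.5% on day 3.5. Leaving out any single animal of the 7 in a comparison ended the call, since an exact test of 3 against 3 animals cannot go below p = 0.1, nor one of 4 against 2 below 0.0667. The difference was then 2.81 points without day 1.5 replicate 3 to 4.48 without day 1.5 replicate 2, and 2.57 points without day 3.5 replicate 1 to 4.65 without day 3.5 replicate 3. Within the animals of 1 sort day the differences were 2.62 points (day 1.5) and 4.49 points (day 3.5), each with p = 0.2 in an exact test of 3 against 2 animals, whose smallest p is 0.1.

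**Figure D4:**
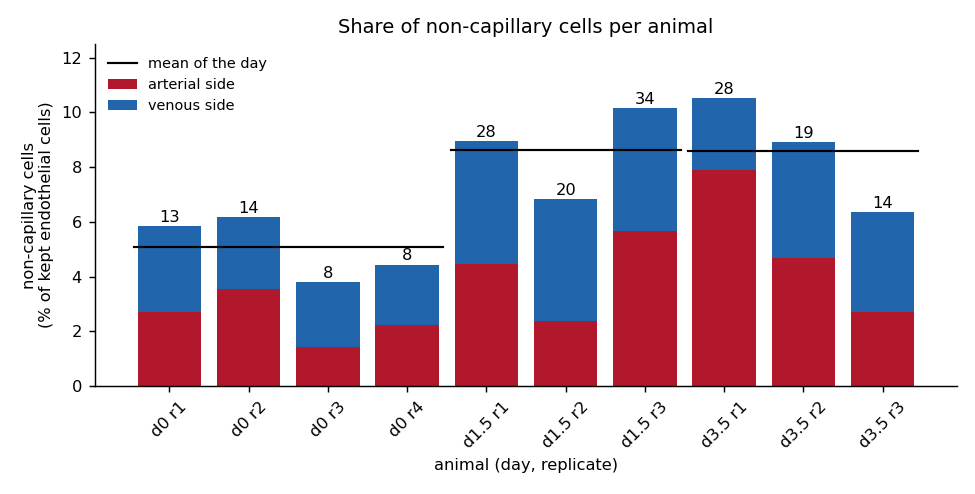
Non-capillary cells as percent of the kept ECs of each animal (bars from 0, split into arterial-side and venous-side cells; the number of members stands above each bar and the black line is the mean of the day). Day 0 animals lie at 3.79% to 6.19% and injected animals at 6.36% to 10.5%.

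The arterial part of the members did not differ detectably between days. It was 46.2%, 57.1%, 37.5% and 50% on day 0, 50%, 35% and 55.9% on day 1.5, and 75%, 52.6% and 42.9% on day 3.5, with means of 47.7% ± 8.2 (SD, n = 4), 46.96% ± 10.8 (SD, n = 3) and 56.8% ± 16.5 (SD, n = 3). The differences from day 0 were -0.74 and 9.13 percentage points (adjusted p = 0.886 and 0.75, exact permutation test over animals). The higher mean of day 3.5 rested on replicate 1, which had 21 arterial-side and 7 venous-side cells: without it the difference from day 0 was 0.05 points. As shares of kept ECs, arterial-side cells were at 2.47%, 4.18% and 5.11% on the 3 days and venous-side cells at 2.6%, 4.46% and 3.5%. Venous-side cells showed the difference from day 0 to day 1.5 without overlap (1.86 points, exact p = 0.0286), but over the 6 comparisons, which were added after the data were seen, the adjusted p was 0.171.

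No gene passed the test between days within members. In edgeR's quasi-likelihood test of summed counts per animal, 0 of 10257 genes (0%) had an adjusted p under 0.05 for day 1.5 against day 0, for day 3.5 against day 0 or for day 3.5 against day 1.5. At an unadjusted p under 0.05 there were 9.96%, 10.5% and 2.97% of the genes, and the smallest adjusted p was 0.380, 0.399 and 1. DESeq2 called 477, 480 and 78 genes (5.31%, 5.49% and 0.822% of those it tested), of which 420, 419 and 72 had a median under 1 CPM on 1 of the days compared. Without the filter on low counts edgeR called 20, 5 and 4. When changes were simulated at the spread of these libraries, most were not called by edgeR, so a gene short of the threshold is not shown to be unchanged.

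The genes with the smallest p were read in few cells. For day 1.5 against day 0 these were Zranb1, Ptrhd1, Zcchc17, Stam2 and Arsj. Ptrhd1, a peptidyl-tRNA hydrolase domain protein, was at 0 CPM in all 4 day 0 animals, at 204.7, 397 and 121.8 CPM on day 1.5 and at 270, 7.86 and 1.88 CPM on day 3.5, detected in 0, 12 and 8 cells. Zranb1, a deubiquitinase, was at 0, 0, 0 and 0.229 CPM on day 0 and at 68.8, 569 and 46.5 CPM on day 1.5, detected in 1 and 13 cells. For day 3.5 against day 0 they were Mettl7a1, Mt1, Cwc25, Ptrhd1 and Gm10434. Mt1, a metallothionein that binds zinc and copper, was at 0.487, 0, 0 and 0 CPM on day 0 and at 194.3, 23.9 and 757 CPM on day 3.5, detected in 2 and 7 cells. For day 3.5 against day 1.5 they were Zcchc17, Mettl7a1, Timp3, Mgat4c and Sh3kbp1. Only Timp3, an inhibitor of metalloproteinases in the matrix, was widespread, with 192.3, 67.4 and 202.8 CPM on day 1.5 and 524, 1409 and 2537 CPM on day 3.5 (unadjusted p = 0.00271, adjusted p = 1). With 8 to 14 members per day 0 animal, 1 cell could carry a level there, so no fold is given for these genes.

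Of the 5 label markers 0 were called between days. Vwf was at 7344, 3948, 2492 and 6044 CPM on day 0, at 6468, 7407 and 4284 on day 1.5, and at 3658, 4923 and 3682 on day 3.5, and the days overlapped. Its log2 change was 0.17 ± 0.33 (SE) on day 1.5 and -0.41 ± 0.33 (SE) on day 3.5 (adjusted p = 0.931 and 0.767). Gja5 was detected in 20.9%, 39.02% and 29.5% of members on the 3 days, Bmx in 41.9%, 47.6% and 37.7%, Nr2f2 in 39.5%, 39.02% and 21.3% and Slc6a2 in 39.5%, 43.9% and 31.1%. In the arterial and venous lists 0 genes were called.

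Of 14 matrix genes tested against day 0, 2 had an unadjusted p under 0.05 with a higher level on day 1.5, beside 9.96% of all genes, and 5 with a higher and 1 with a lower level on day 3.5, beside 10.5%, none of them past the adjusted threshold. Their median log2 change was 0.55 and 1.17, against 0.04 and -0.01 over all genes detected in at least 10 members. Elastin was at 375.2, 448, 39.1 and 127.9 CPM on day 0, at 417, 130 and 415 on day 1.5, and at 354.95, 893 and 2238 on day 3.5, a log2 change of 1.98 ± 0.87 (SE) from day 0 to day 3.5 (adjusted p = 0.437). Mgp was at 2444, 19946, 0 and 2702 CPM on day 0 and at 17609, 15087 and 14785 CPM on day 3.5. It was detected in 39.5%, 69.5% and 70.5% of members. Sparc, a collagen-binding glycoprotein, was at 1.70, 492, 3.63 and 346.998 CPM on day 0, at 1287, 652 and 1402 on day 1.5, and at 843, 895 and 1386 on day 3.5. Every injected animal was thus above every day 0 animal for Sparc, with detection in 44.2%, 91.5% and 93.4% of members, yet the adjusted p was 0.639 and 0.612. Col4a1, a chain of basement membrane collagen, was detected in 48.8%, 78.05% and 60.7% of members (adjusted p = 0.394 and 0.399).

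Of 10 adhesion genes, 2 had an unadjusted p under 0.05 with a higher and 1 with a lower level on each later day, beside 9.96% and 10.5% of all genes, and of 10 hemostasis genes 0 did, with none past the adjusted threshold. Lrg1, the leading venous-side gene, was at 1093, 343.3, 0 and 524 CPM on day 0, at 4814, 1440 and 465 on day 1.5, and at 475, 1644 and 6745 on day 3.5, so that the days overlapped (adjusted p = 0.692 and 0.591). It was detected in 7 of 43, 51 of 82 and 37 of 61 members. Icam2, an adhesion protein present on resting endothelium, was at 2399, 2934, 3049 and 1611 CPM on day 0 and at 1211, 885 and 1871 on day 1.5 (log2 change -1.16 ± 0.45 SE, adjusted p = 0.401). Selp was detected in 9.30%, 21.95% and 18.03% of members. Anxa2, which binds plasminogen, had means of 729, 803 and 694 CPM.

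Other widespread genes were likewise short of the threshold. Cldn5 was at 4555, 3159, 4021 and 1367 CPM on day 0, at 1663, 888 and 2196 on day 1.5, and at 1861, 1777 and 2448 on day 3.5 (log2 change -1.28 ± 0.44 SE on day 1.5, adjusted p = 0.383). Prss23 was at 773, 1446, 2173 and 1206 CPM on day 0 and at 276.8, 512 and 1023 on day 3.5 (log2 change -1.46 ± 0.62 SE, adjusted p = 0.436). S100a11, a calcium-binding protein from the study's biosynthesis panel, was at 130, 420, 540 and 429 CPM on day 0 and at 881, 838 and 1003 on day 1.5, without overlap (adjusted p = 0.686). That panel, which the study chose on these samples, had 0 of 9 genes called, and so did the interferon list (0 of 9), the Notch list (0 of 11), the flow list (0 of 6), the clock list (0 of 8), the growth factor list (0 of 7) and the study's angiokine list (0 of 2). Dbp, a clock output gene, was detected in 8, 1 and 22 members on the 3 days, at 20.5, 190, 0 and 282.7 CPM on day 0, at 0, 0 and 0.0900 on day 1.5 and at 119.3, 28.3 and 0.426 on day 3.5. The hour of sampling cannot be told apart from the day here.

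**Figure D5:**
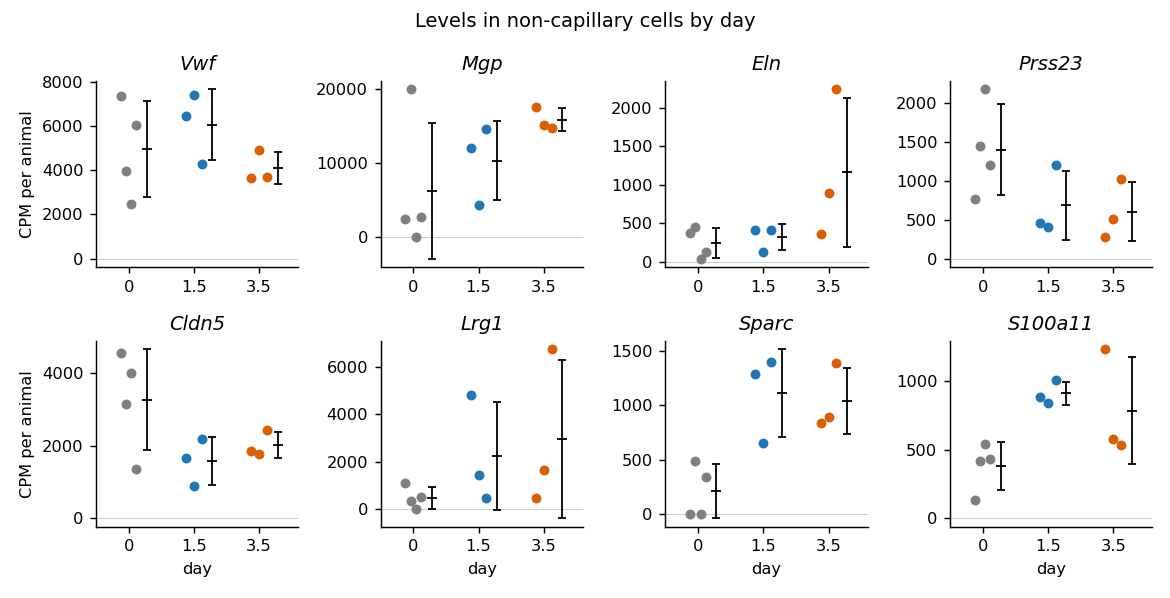
Level (CPM, linear axes) of 8 genes in non-capillary cells by day, 1 point per animal (4, 3 and 3), with bars for the mean and SD of the day. The genes were picked from the lists after their values were seen; Sparc and S100a11 on day 1.5 lie above all day 0 animals, while the days overlap for Vwf, Mgp and Lrg1.

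Finally, the change of members was set against that of capillary cells from the same animals. In edgeR's test of the interaction 0 of 16991 genes (0%) passed for day 1.5 and 0 (0%) for day 3.5, with 2321 and 2383 at an unadjusted p under 0.05 and a smallest adjusted p of 0.0641 and 0.0964. DESeq2 called 1232 and 1305 (8.69% and 8.77%). Without day 0 replicate 1 edgeR called 7 and 9 genes, and without day 0 replicate 2 it called 4 for day 1.5. The leading genes were again close to absent on day 0: Epc1, a chromatin protein, was at 0 CPM in all 4 day 0 libraries of members, at 45.8, 118.4 and 7.65 CPM on day 1.5 and at 15.04, 80.3 and 34.1 CPM on day 3.5, while its mean in capillary cells was 44.5, 52.3 and 29.6 CPM. For Lrg1 the capillary mean went from 45.6 CPM on day 0 to 326.7 and 606 CPM, and the difference of the log2 changes was -0.57 and -1.19 (adjusted p = 0.982 and 0.886). Within capillary cells, edgeR called 1 gene (0.00579%) at each later day against day 0.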

How the data were processed

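Single ECs were sorted into plates and sequenced without molecular identifiers, 1 library per cell. The authors processed reads with bcl2fastq and Salmon 0.7.2 against GRCm38 (submitters' processing notes; annotation release not given in the sources used here) and deposited estimated counts per gene and well, for 3455 EC wells. They also deposited log10 values of the kept cells, for which they set each gene's estimate relative to the cell's average housekeeping gene, multiplied it by 10000 and added 1. The authors filtered cells on detected genes, mitochondrial share and immune or stromal markers, and no doublet caller was run here. Columns were joined to animals through the deposited annotation of cells, and no 2 cells held identical columns. All 21895 genes with log10 values were used, and the tumor cell tables were not.

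Scores were rebuilt with Seurat 5.3.0. Estimated counts were summed over the cells of each animal, rounded and tested in edgeR 4.0.16 (TMM scaling, filterByExpr, quasi-likelihood test, Benjamini-Hochberg adjusted p under 0.05; standard errors from the same fit), with DESeq2 1.42.0 and limma 3.58.1 as alternatives. These tools were tested on simulated data for day 1.5 against day 0: at the spread of these libraries most changed genes were called by none of them, and DESeq2 called more unchanged than changed genes. The labels number the animals, which are the replicates. Shares were compared by 2-sided exact permutation tests over animals (SciPy 1.17.1). Summed levels per animal rest on 4.11 to 11.1 M reads, and 1 cell can carry much of a level. Gene positions are from RefSeq GRCm38.p6.

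The members and gene lists were chosen with earlier results of these data known. Named genes were the label markers, the large-vessel, arterial and venous lists, the 5 genes of smallest p per contrast where none was called, the 15 highest and 10 lowest ratios against capillary cells with 1 direction in all 10 animals (outside the classing lists, detected in at least 20% of the cells of the higher class), the 10 genes leaning furthest to each side, and the 4 most abundant of each list. Other genes of the lists named in the text, including Fbn1, Fbln2, Mfap2, Emilin1, Itgb5, Col4a1, Col4a2, Procr, Plat, Nos3, Selp, Ackr1, Hey2, Unc5b, Htra1, Kdr, Kit, Jam2 and Dbp, were picked after their values were seen. So were the limit of 10 reads, the comparisons within a sort day, the sides per kept cell and the fits to members above score 1.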

Additional observations from a re-analysis of the deposited data

Results flagged for a closer look

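In 85 groups of 4 day 0 animals (the shares and the levels of large-vessel, day and abundant list genes in members), 21 held an animal whose gap to the nearest other exceeded Dixon's 95% critical share of the group's range. That limit flags about 1 in 20 groups by chance if values are normally distributed. Levels summed over few cells are skewed, and the genes share the same 4 libraries. The 21 of 85 are therefore not read as an excess over chance. The set of genes and a floor of 3 reads were chosen after the data were seen. All 21 were levels in which 1 animal stood above the other 3.

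Large-vessel, arterial and venous genes were among them: Bgn reached 469 CPM in replicate 2, Hey1 494 CPM in replicate 3, Efnb2 732 CPM in replicate 4, Mgp 19946 CPM in replicate 2 and Ackr3, the scavenging chemokine receptor, 468 CPM in replicate 4. Of capillary genes, Ednrb reached 281.99 CPM in replicate 2, Enho 425 CPM in replicate 3 and Alpl 28.2 CPM in replicate 2. Markers of other cells were set apart in the same manner, with Rgs5 at 234.001 CPM in replicate 4, Tagln at 115.5 CPM and Krt18 at 58.2 CPM in replicate 2, and Sftpc at 7.55 CPM and Hba-a1 at 75.9 CPM in replicate 4. Signaling and inflammatory genes included Dll1 at 745 CPM and Gbp2, an interferon-induced GTPase, at 551 CPM in replicate 4, and Icam1 at 1309 CPM in replicate 1. The clock genes Per3 and Clock stood at 374.7 and 106.4 CPM in replicate 4. The growth factors Kitl, Pdgfb and Bmp6 stood at 210 CPM in replicate 3, 158.4 CPM in replicate 2 and 173.1 CPM in replicate 1.

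These libraries held 8 to 14 cells each. The cell with the most reads of the gene supplied between 49.8% and 100% of the gene's reads in the library, with a median of 93.5% over the 21. For Rgs5, a mural marker, 1 cell of replicate 4 supplied 100%.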

How the results depend on the processing

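Of the comparisons between days and the summary counts, 120 alternative values kept their direction and their side of the threshold, 22 lost the call, 12 gained one and 11 changed sign; of single genes, 833 of 873 kept both. The higher share of non-capillary cells on days 1.5 and 3.5 lost its call with members above score 1 (2.98 and 2.62 percentage points), with all sorted wells as denominator (3.39 and 1.57), within a sort day (2.62 and 4.49) and with a replicate block (3.36 and 3.32, exact p = 0.25). Leaving out 1 animal gave 2.81 to 4.48 and 2.57 to 4.65, and the difference between days 3.5 and 1.5 then ran from -0.998 to 1.08, with a change of sign without day 1.5 replicate 1 (0.12) or 3 (0.72) or day 3.5 replicate 3 (1.08). The arterial share on day 1.5 against day 0 turned to 2.096 points by marker detection, 0.40 with members above score 1 and 0.029 with a replicate block, and ran from -5.20 to 5.24 without 1 animal (2.41 without day 0 replicate 2, 0.03 without day 0 replicate 4, 5.24 without day 1.5 replicate 2). With members above score 1 it was -0.36 points on day 3.5 against day 0 and -0.76 against day 1.5. In none of these was the cause tested.

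Between days, DESeq2 called 477, 480 and 78 genes where edgeR called 0, and edgeR without a filter on low counts, which tests more genes, called 20, 5 and 4. The other fits between days (limma, DESeq2 size factors, replicate block, sort day, members above score 1, 1 animal left out) called 0. In the comparison with the capillary response DESeq2 called 1232 and 1305 genes, edgeR with members above score 1 called 2 for day 3.5, and edgeR without 1 animal called 0 to 7 for day 1.5 and 0 to 9 for day 3.5. The median log2 change of all genes was 0.07 and 0.03 on days 1.5 and 3.5, but -0.16 and -0.19 under DESeq2 size factors, 0.69 and 0.56 with the replicate block and 0.53 and 0.76 with sort day as a covariate, so small changes of single genes have no fixed sign. Hey1 against capillary cells turned from -0.14 to 0.13 (mean log10 value), 0.25 (equal totals), 0.07 (without day 0 replicate 4) and 0.06 (without day 3.5 replicate 3), and ran from -1.12 to 0.069 without 1 animal. Same-numbered animals did not deviate together (r from -0.04 to 0.01 over 9 pairs, none over 0.1), so the replicate block pairs animals that share only a number, and the block changed no other call. Since 8 to 34 cells stand for an animal, 1 cell can carry the level of a gene read in few cells.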
